A study of Mus musculus with 12 samples.

Results

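The genes described here mark the nerve cells and the pacemaker cells of the gut wall. The 9 genes were chosen by symbol, Nos1, Chat, Prph, Hand2, Ret, Uchl1, Kit, Ano1 and Etv1, and all 9 were found among the 23420 gene rows of the count table. Of these, 8 had enough reads to be tested, and Chat did not pass the filter on low counts.

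The enteric nervous system is a network of neurons and glia inside the gut wall that descends from neural crest cells, which need the receptor Ret to colonise the gut. Its motor neurons are mainly of an excitatory kind that uses acetylcholine and an inhibitory kind that uses nitric oxide, and in the pylorus, the sphincter between stomach and duodenum, nitric oxide from neurons relaxes the muscle. Interstitial cells of Cajal lie among the muscle and nerve fibres, depend on the receptor Kit, are maintained by the transcription factor Etv1, and generate the electrical slow waves of the gut through the chloride channel Ano1.

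RNA from whole pylorus of C57BL/6 mice was sequenced in 12 libraries, 3 in each of 4 groups. The groups were wild-type mice at 60 days of age (D60) and at 80 days (D80), and CEA424-SV40 T Ag transgenic mice of the same strain at the same ages. In the transgenic mice a promoter of the human carcinoembryonic antigen gene, which acts in epithelial cells, drives the SV40 T antigen, a viral oncoprotein, and the line is known as a model of gastric neuroendocrine tumours. The labels do not say that the 3 libraries of a group came from separate animals, so the p-values measure the spread between these libraries, which may be in part technical.

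Total counts per library ran from 20121600 to 27633715. Levels are in CPM, the count scaled to a library total of 1e+06 with edgeR's TMM factors, which correct for differences in library composition, and a gene was called where edgeR's quasi-likelihood test gave a Benjamini-Hochberg adjusted p under 0.05 over the 15369 genes tested. Xist and Y-linked counts showed the D60 wild-type libraries as male and the D60 transgenic and D80 wild-type libraries as female. Genotype at D60, and age in wild-type mice, therefore cannot be told apart from sex. The D80 transgenic group held 1 male library, replicate 1, and 2 female ones. Sex varied within no other group. Any value given below with sex as a covariate therefore rests on that 1 library against the 2 female ones, and cannot separate sex from what else sets that library apart. Summed over 12 genes of duodenal enterocytes, replicate 3 of the D80 wild-type group stood at 12995 CPM, the others of its group at 693 and 3235 CPM. Summed over genes of pancreatic acinar cells, replicate 1 of the D80 transgenic group stood at 4306 CPM, the others of its group at 1012 and 860 CPM. By the mean log2 CPM of these genes, all 3 D80 transgenic libraries stood above the D80 wild-type ones. It was 7.38, 5.42 and 5.23 in D80 transgenic replicates 1, 2 and 3, and −1.13, −1.49 and 4.39 in D80 wild-type ones.

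At D80 the 9 genes did not move together. Of the 8 tested, Uchl1, Kit and Etv1 rose in the transgenic pylorus, Nos1, Prph, Hand2 and Ano1 fell, and Ret was not called. In the same comparison 41.3% of all genes tested were called, 19.4% as higher and 21.99% as lower. The median log2 difference over the 8 genes was −0.26, beside −0.07 over all genes tested. A setting chosen after seeing the data left out D80 wild-type replicate 3 and D80 transgenic replicate 1. These had the highest duodenal and the highest acinar sum of their groups, in that order. In this setting 6 of the 8 were called, and Hand2 was not (−0.87, adjusted p 0.14). At D60 only Etv1 of the 8 was called, as higher, against a background of 3.90% of genes called, 3.66% as higher and 0.241% as lower. The median over the 8 genes at D60 was 0.17, beside −0.00 over all genes. In bulk RNA, fewer cells of a type and less RNA per cell cannot be told apart.

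**Figure D1:**
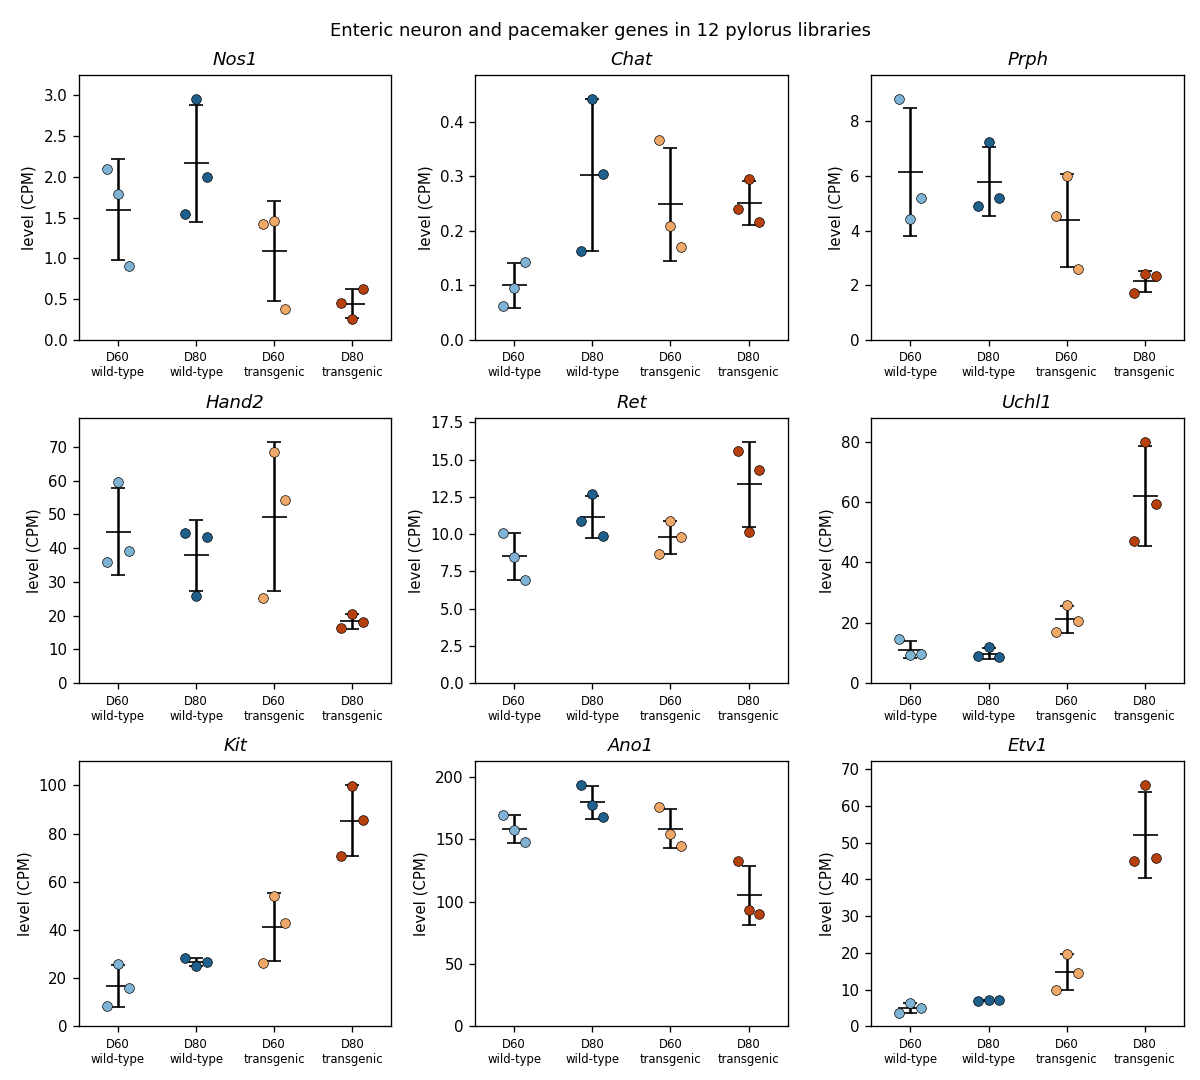
Level of each gene in CPM (vertical axis, linear, from 0) in the 4 groups, with 1 point per library and bars for the mean and SD of 3 libraries. The D80 transgenic libraries sit above the D80 wild-type libraries for Uchl1, Kit and Etv1, below them for Nos1, Prph, Hand2 and Ano1, and overlap them for Ret and Chat.

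The promoter stretches of 5 of these genes are shown because the genes of the pacemaker cells moved apart (Kit and Etv1 higher, Ano1 lower at D80), as did 2 neuronal genes (Uchl1 higher, Prph lower). They come from RefSeq on build GRCm38.p6 and run from 250 bases before to 50 bases after the annotated start of transcription. Capitals mark the E-box, CANNTG, which reads as CANNTG on both strands and is the core bound by basic helix-loop-helix factors, the family of Hand2. RefSeq starts lie at several places in a gene, so Kit and Etv1 each have 2 entries. The first of the Kit entries and both of the Etv1 entries are printed. The Kit stretch is chr5:75574737-75575036 on the plus strand, the Etv1 stretches are chr12:38779832-38780131 and chr12:38783461-38783760 on the plus strand, the Ano1 stretch is chr7:144738524-144738823 on the minus strand, the Uchl1 stretch is chr5:66675871-66676170 on the plus strand and the Prph stretch is chr15:99054924-99055223 on the plus strand.
Kit: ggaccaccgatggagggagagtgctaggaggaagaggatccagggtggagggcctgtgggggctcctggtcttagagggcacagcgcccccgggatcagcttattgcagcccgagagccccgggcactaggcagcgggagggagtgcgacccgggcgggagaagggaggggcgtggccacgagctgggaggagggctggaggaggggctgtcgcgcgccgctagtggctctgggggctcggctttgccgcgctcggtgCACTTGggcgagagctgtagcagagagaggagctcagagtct
Etv1 first start: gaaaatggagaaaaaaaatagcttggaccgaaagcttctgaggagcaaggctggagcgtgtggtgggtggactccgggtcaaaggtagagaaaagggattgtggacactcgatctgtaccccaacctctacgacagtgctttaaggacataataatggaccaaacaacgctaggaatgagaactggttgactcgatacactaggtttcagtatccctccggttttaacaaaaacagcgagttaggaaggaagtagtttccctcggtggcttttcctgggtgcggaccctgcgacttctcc
Etv1 second start: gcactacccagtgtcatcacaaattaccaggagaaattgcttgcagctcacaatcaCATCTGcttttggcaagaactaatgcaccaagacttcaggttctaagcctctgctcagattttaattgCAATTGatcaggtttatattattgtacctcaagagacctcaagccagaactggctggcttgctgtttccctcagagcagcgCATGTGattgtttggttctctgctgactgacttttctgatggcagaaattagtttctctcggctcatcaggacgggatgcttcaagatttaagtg
Ano1: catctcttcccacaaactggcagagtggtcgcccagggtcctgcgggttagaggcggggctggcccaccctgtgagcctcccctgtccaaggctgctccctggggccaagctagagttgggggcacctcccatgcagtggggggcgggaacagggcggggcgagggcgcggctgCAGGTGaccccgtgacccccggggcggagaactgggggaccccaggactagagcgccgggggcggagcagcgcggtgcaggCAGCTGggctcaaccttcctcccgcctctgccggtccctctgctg
Uchl1: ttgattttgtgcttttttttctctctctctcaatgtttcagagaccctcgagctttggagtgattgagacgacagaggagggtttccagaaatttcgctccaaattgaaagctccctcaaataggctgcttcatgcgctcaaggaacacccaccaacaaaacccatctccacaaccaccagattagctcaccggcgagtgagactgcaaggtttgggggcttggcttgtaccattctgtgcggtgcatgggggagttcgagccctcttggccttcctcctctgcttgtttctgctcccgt
Prph: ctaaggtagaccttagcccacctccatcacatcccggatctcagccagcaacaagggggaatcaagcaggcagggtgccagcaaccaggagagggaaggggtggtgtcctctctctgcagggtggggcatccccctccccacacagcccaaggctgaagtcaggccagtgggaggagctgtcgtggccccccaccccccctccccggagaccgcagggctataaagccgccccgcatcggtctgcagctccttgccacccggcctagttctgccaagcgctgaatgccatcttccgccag

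The printed stretches differ in base composition. The G and C share was 69.0% in Kit, 71.7% in Ano1 and 64.7% in Prph, and 50.7% in Uchl1, 48.7% at the first and 44.0% at the second start of Etv1. Ano1 held 2 E-boxes and Kit held 1, while Uchl1, Prph and the first Etv1 start held none and the second Etv1 start held 3. Promoter entries were matched for 8 of the 9 genes, in 10 entries, and Ret is named without one. An E-box was in 7 of these 10 entries and in 72.3% of all 32851 RefSeq mouse promoter entries of this length. The ETS core CCGGAA, searched on both strands because Etv1 is an ETS family factor, was in 1 of the 10 entries, that of Chat, and in 14.9% of all entries. A match is a description of the letters in the window, and these shares lie near those of all promoters.

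Per kilobase of annotated exon, which allows levels of different genes to be compared, the order in wild-type mice was led by Ano1 at both ages. At D80, the mean level was 28.8 ± 2.07 CPM per kb (SD, n = 3) for Ano1, 16.1 ± 4.46 for Hand2 and 5.98 ± 1.12 for Uchl1. Kit followed at 2.99 ± 0.202 and Prph at 2.89 ± 0.633, and these neighbours did not differ beyond their spread. Ret stood at 1.65 ± 0.212, Etv1 at 0.525 ± 0.00768, Nos1 at 0.194 ± 0.0647 and Chat at 0.0643 ± 0.0296 CPM per kb. The order at D60 was the same except that Prph, at 3.08 ± 1.18, stood above Kit, at 1.88 ± 0.980, and their libraries overlapped there too, as did those of Ano1 and Hand2 and of Kit and Ret. The D60 transgenic group kept the D80 wild-type order, from Ano1 at 25.4 ± 2.53 CPM per kb and Hand2 at 21.0 ± 9.42 down to Chat. Uchl1 stood at 12.9 ± 2.81 there, and neighbouring libraries overlapped between Ano1 and Hand2, Hand2 and Uchl1, Kit and Prph, Prph and Ret, Ret and Etv1, and Nos1 and Chat.

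In the D80 transgenic pylorus the order per kilobase began with Uchl1, at 38.0 ± 10.2 CPM per kb, ahead of Ano1 at 16.8 ± 3.79. Kit, at 9.58 ± 1.65, and Hand2, at 7.78 ± 0.924, came next with overlapping libraries. Etv1 stood at 3.92 ± 0.880, Ret at 1.97 ± 0.421 and Prph at 1.07 ± 0.188 CPM per kb. Chat, at 0.0533 ± 0.00852, and Nos1, at 0.0397 ± 0.0162, closed the order and were not separated from each other. The exon lengths come from a reference annotation on GRCm38, and a gene whose transcripts here use fewer exons than annotated has a higher true level per kilobase.

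Nos1 makes nitric oxide in the inhibitory motor neurons and lies on chromosome 5 at 117781032 to 117958840 of GRCm38, on the plus strand. Its level at D60 was 2.10, 1.79 and 0.904 CPM in the wild-type libraries and 1.42, 1.46 and 0.383 CPM in the transgenic ones. At D80 it was 1.54, 2.96 and 1.99 CPM in wild-type mice and 0.450, 0.258 and 0.619 CPM in transgenic mice. Every D80 transgenic library lay below every D80 wild-type library, while the D60 groups overlapped. These levels rest on 7 to 67 reads per library. Nos1 fell by 2.26 on the log2 scale at D80 (SE 0.53, adjusted p 0.006), and at D60 its log2 difference was −0.54 (SE 0.51, adjusted p 0.72).

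Chat, choline acetyltransferase of the excitatory neurons, had between 1 and 10 reads in each library. The reads were 4, 10 and 7 in D80 wild-type mice and 8, 8 and 7 in D80 transgenic mice, and the groups overlapped. At D60 they were 1, 2 and 3 in wild-type mice and 9, 5 and 4 in transgenic mice. On the same TMM scale the floor of 3 counts was 0.185 CPM in the library with the smallest scaled total and 0.0901 CPM in that with the largest, and the group means of Chat ran from 0.0996 to 0.302 CPM. When the filter was not applied, the log2 difference of Chat was 1.25 (SE 0.65, adjusted p 0.48) at D60 and −0.27 (SE 0.54, adjusted p 0.74) at D80, so a change in Chat was not detectable at this depth. Slc18a3, the vesicular acetylcholine transporter, lies within the Chat locus on the same strand and shares no exon bases with it. It rose from 1.08 ± 0.208 to 5.22 ± 1.95 CPM at D80, a log2 difference of 2.26 (SE 0.44, adjusted p 0.0021); it was singled out after its values were seen.

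Prph encodes peripherin, an intermediate filament of peripheral neurons, and lies on chromosome 15 at 99055174 to 99058978 on the plus strand. Wild-type and transgenic libraries at D60 stood at 8.83, 4.43 and 5.19 CPM and at 4.55, 6.00 and 2.60 CPM, in that order. At D80 the values were 4.92, 7.23 and 5.20 CPM in wild-type mice and 1.71, 2.40 and 2.32 CPM in transgenic mice. The D80 groups did not overlap, and each D80 transgenic library was also below the lowest library of the D60 transgenic group. Prph fell by 1.43 on the log2 scale at D80 (SE 0.35, adjusted p 0.0069), and the difference at D60 was −0.48 (SE 0.34, adjusted p 0.59).

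Uchl1 encodes the deubiquitinase also known as PGP9.5, which is abundant in neurons and also made by neuroendocrine cells. The D60 libraries held 14.4, 9.18 and 9.57 CPM in wild-type mice and 16.8, 25.9 and 20.5 CPM in transgenic mice. The D80 libraries held 8.90, 11.9 and 8.54 CPM in wild-type mice and 47.0, 79.8 and 59.3 CPM in transgenic mice. No transgenic library overlapped a wild-type library of its age. Uchl1 rose by 2.67 on the log2 scale at D80 (SE 0.26, adjusted p 1.5e-05), and the difference at D60 was 0.93 (SE 0.25, adjusted p 0.064), or 0.37 (adjusted p 1) with sex as a covariate. Of the 8 genes it was the 1 called by edgeR for a difference between genotypes that itself changed with age, by 1.73 on the log2 scale (SE 0.35, adjusted p 0.019), against 4.997% of all genes called in that interaction, 2.77% as higher and 2.23% as lower. This call ended without D60 transgenic replicate 3 (1.71, adjusted p 0.058) or without D80 transgenic replicate 2 (1.51, adjusted p 0.056), and with sex as a covariate (2.47, adjusted p 0.074).

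Uchl1 moved alongside the neuroendocrine genes of the same libraries. The summed level of 14 neuroendocrine genes, among them Chga, Chgb and Syp, ran from 519 to 678 CPM in the D60 wild-type libraries and from 753 to 787 CPM in the D80 wild-type ones. It ran from 5152 to 7086 CPM in the D60 transgenic libraries and from 29770 to 43979 CPM in the D80 transgenic ones. At each age 14 of the 14 genes were called as higher, beside 3.66% of all genes at D60 and 19.4% at D80. The part of these cells in the Uchl1 level was not tested. The Uchl1 to Prph ratio of counts within a library, which does not depend on library scaling, was 1.64 to 2.07 in D60 wild-type mice and 1.64 to 1.81 in D80 wild-type mice. It was 3.69 to 7.89 in D60 transgenic mice and 25.5 to 33.3 in D80 transgenic mice. At both ages the transgenic ratios lay above all wild-type ratios; the ratio was not tested, and at D60 genotype cannot be told apart from sex.

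**Figure D2:**
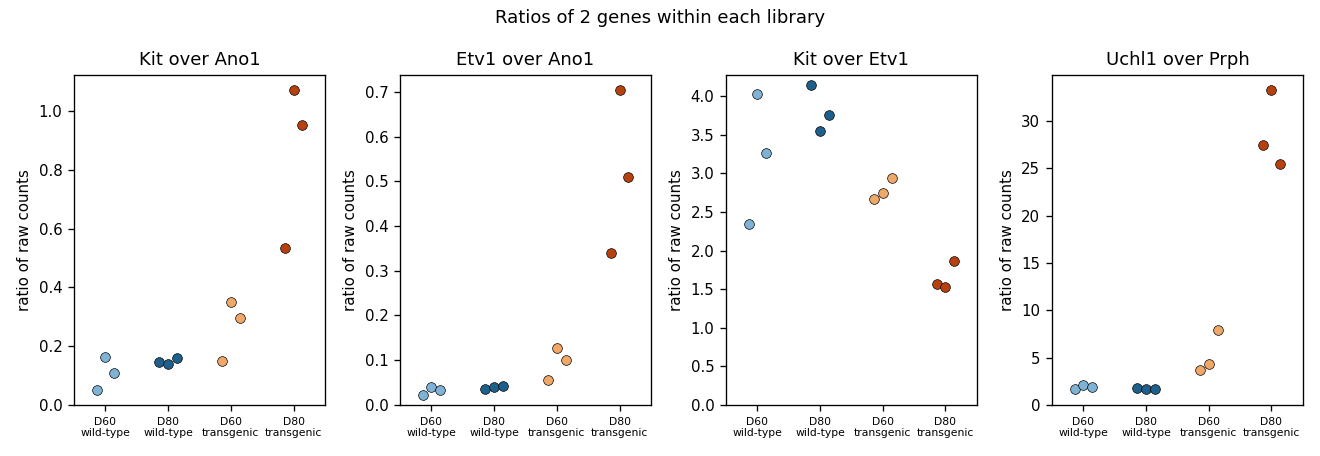
Ratio of the raw counts of 2 genes within each library (vertical axis, linear, from 0) for 4 pairs of genes, with 1 point per library and the groups along the horizontal axis. Kit over Ano1, Etv1 over Ano1 and Uchl1 over Prph are highest in the 3 D80 transgenic libraries, and Kit over Etv1 is lowest there.

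Ret, the receptor of the GDNF family ligands that enteric neuron precursors need, was not called between the genotypes at either age. Its level at D60 was 10.1, 8.48 and 6.95 CPM in wild-type mice and 8.66, 10.9 and 9.79 CPM in transgenic mice. At D80 it was 10.8, 12.7 and 9.88 CPM in wild-type mice and 15.6, 10.1 and 14.3 CPM in transgenic mice, with overlapping groups. The log2 difference at D80 was 0.26 (SE 0.20, adjusted p 0.32), with a 95% interval of −0.18 to 0.70, and at D60 it was 0.20 (SE 0.20, adjusted p 0.74). With no composition factor, a scaling under which the median of all genes moved from −0.07 to 0.34 at D80, the Ret difference was 0.67 and was called (adjusted p 0.031).

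Hand2 is a transcription factor needed for enteric neurons to differentiate and is also made by the mesenchyme of the gut wall. In D60 libraries Hand2 stood at 35.8, 59.6 and 39.2 CPM in wild-type mice and 25.1, 68.6 and 54.2 CPM in transgenic mice. In D80 libraries it stood at 44.5, 25.8 and 43.3 CPM in wild-type mice and 16.2, 20.6 and 18.0 CPM in transgenic mice. The D80 groups did not overlap and the D60 groups did. Hand2 fell by 1.05 on the log2 scale at D80 (SE 0.33, adjusted p 0.026), and the difference at D60 was 0.14 (SE 0.33, adjusted p 0.92).

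The D80 call of Hand2 was the least firm of the 7. Leaving out any 1 of 5 D80 libraries ended it, with log2 differences of −1.14 to −0.92: for wild-type mice replicate 1 (adjusted p 0.056) or 3 (0.067), and for transgenic mice replicate 1 (0.075), 2 (0.052) or 3 (0.089). It also ended with upper-quartile scaling (−0.89, adjusted p 0.061), with no composition factor (−0.64, adjusted p 0.19) and with sex as a covariate (−0.97, adjusted p 0.078). The annotation places exons of Hand2os1 on the opposite strand over 19.6% of the Hand2 exon bases, and those of Uchl1os over 18.1% of the Uchl1 exon bases. The library kit marks strand, but the strand setting of the counting is not given in the sources used here.

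Kit is the receptor of stem cell factor, carried by interstitial cells of Cajal and also by mast cells, and lies on chromosome 5 at 75574916 to 75656722 on the plus strand. The receptor's level at D60 was 8.40, 25.8 and 16.0 CPM in wild-type mice and 26.3, 54.3 and 42.8 CPM in transgenic mice. By D80 the values were 28.5, 24.9 and 26.5 CPM in wild-type mice and 70.6, 99.96 and 85.6 CPM in transgenic mice. At both ages the transgenic libraries lay above the wild-type ones, at D60 by a narrow margin between the nearest libraries. Kit rose by 1.68 on the log2 scale at D80 (SE 0.34, adjusted p 0.0028), and the difference at D60 was 1.29 (SE 0.34, adjusted p 0.065). The difference between the ages in this effect was 0.39 (SE 0.48, adjusted p 0.68).

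Mast cell genes, summed, stood higher in every transgenic library than in every wild-type library of its age, and these sums were not tested. The summed level of the 11 mast cell genes ran from 23.0 to 37.5 CPM in D60 wild-type mice and from 44.2 to 99.8 CPM in D60 transgenic mice. At D80 it ran from 22.7 to 32.8 CPM in wild-type mice and from 48.9 to 70.5 CPM in transgenic mice. Per library, between 0 and 3 of the 11 genes were at 0 counts. Of the 11 genes, 6 had enough reads to be tested, and 1 was called at D60 and 2 at D80, all as higher. Of all genes, 3.66% were called as higher at D60 and 19.4% at D80, and 3.90% and 41.3% in either direction. The part of mast cells in the Kit level was not tested.

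Etv1, the ETS family transcription factor of interstitial cells of Cajal, lies on chromosome 12 at 38779380 to 38870484 on the plus strand. Its level at D60 was 3.58, 6.41 and 4.90 CPM in wild-type mice and 9.84, 19.8 and 14.5 CPM in transgenic mice. At D80 it was 6.87, 7.01 and 7.06 CPM in wild-type mice and 45.0, 65.6 and 45.7 CPM in transgenic mice. No transgenic library overlapped a wild-type one at either age. The group means of Etv1 stood in the same order as the neuroendocrine sums given above. They were 4.96 and 6.98 CPM in D60 and D80 wild-type mice, and 14.7 and 52.1 CPM in D60 and D80 transgenic mice. The part of neuroendocrine cells in the Etv1 level was not tested. Etv1 rose by 1.56 on the log2 scale at D60 (SE 0.27, adjusted p 0.0054) and by 2.90 at D80 (SE 0.27, adjusted p 1.3e-05). With sex as a covariate, which rests on the 1 male library of the D80 transgenic group, the D60 difference was 1.25 (SE 0.46, adjusted p 0.7). It was then no longer called. The D80 difference exceeded that at D60 by 1.34 on the log2 scale (SE 0.37, adjusted p 0.061), which missed the threshold with edgeR and passed with DESeq2 (adjusted p 0.0068).

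Ano1, the calcium-activated chloride channel behind the slow waves, is also made by some epithelial cells, and lies on chromosome 7 at 144588549 to 144751974 on the minus strand. The channel's level at D60 was 169.8, 157 and 148 CPM in wild-type mice and 176, 155 and 145 CPM in transgenic mice. At D80 Ano1 was at 193, 178 and 168 CPM in wild-type mice and 132, 93.2 and 89.7 CPM in transgenic mice. The D60 groups overlapped over nearly their whole range, and the D80 groups were apart. The log2 difference at D60 was 0.00 (SE 0.15, adjusted p 1), with a 95% interval of −0.33 to 0.33. Ano1 fell by 0.77 on the log2 scale at D80 (SE 0.15, adjusted p 0.0023), and with no composition factor the difference was −0.37 and was not called (adjusted p 0.08). Its difference between the ages in the effect of genotype was −0.77 (adjusted p 0.061), and DESeq2 called it (adjusted p 0.023).

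**Figure D3:**
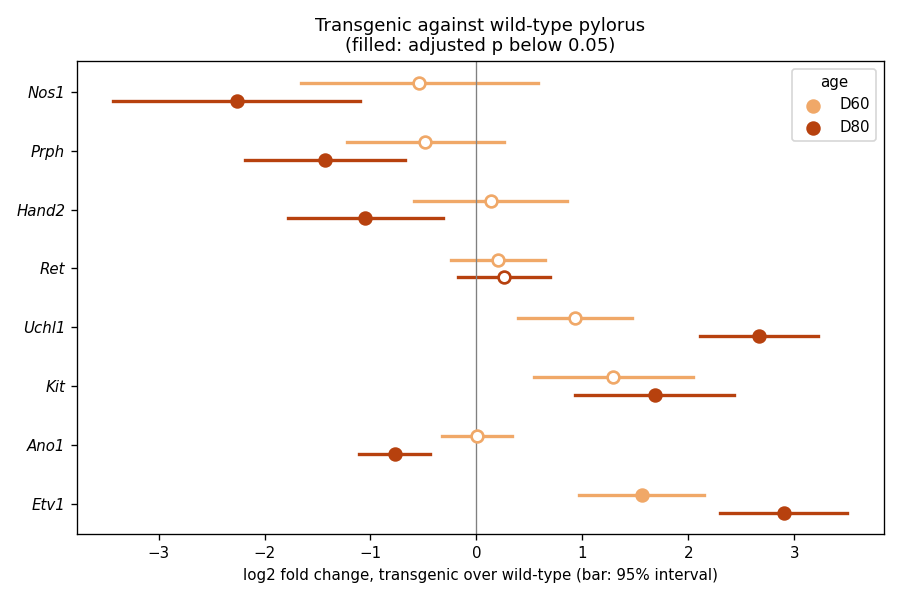
Log2 difference of the 8 tested genes (horizontal axis), transgenic over wild-type, at D60 and at D80, with bars for the 95% interval of the edgeR fit and filled points for genes called. At D80 Etv1, Uchl1 and Kit lie above 0, Nos1, Prph, Hand2 and Ano1 lie below 0, and the interval of Ret includes 0.

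The ratios among the pacemaker genes restate this parting within each library, from the same counts as the calls above, so they add no separate support. Kit counts were 0.140 to 0.158 of the Ano1 counts in D80 wild-type libraries and 0.533 to 1.07 of them in D80 transgenic libraries. The Etv1 to Ano1 ratio was 0.0355 to 0.0421 in D80 wild-type libraries and 0.340 to 0.704 in D80 transgenic ones. Kit and Etv1, both higher in the transgenic pylorus, did not keep their ratio either, since Kit over Etv1 was 3.55 to 4.15 in D80 wild-type libraries and 1.52 to 1.87 in D80 transgenic ones. The Ret to Hand2 ratio was 0.228 to 0.493 in D80 wild-type libraries and 0.493 to 0.959 in D80 transgenic ones, so these groups just overlapped. Nos1 over Prph was 0.314 to 0.409 in D80 wild-type libraries and 0.108 to 0.267 in D80 transgenic ones, from 7 to 20 Nos1 reads in the latter.

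Between D60 and D80 in the transgenic mice, Uchl1, Kit and Etv1 rose, Prph, Hand2 and Ano1 fell, and Nos1 and Ret were not called. In this comparison 35.7% of all genes were called, 17.7% as higher and 17.99% as lower. Etv1 rose by 1.83 on the log2 scale (SE 0.26, adjusted p 6e-04), Uchl1 by 1.56 (SE 0.24, adjusted p 0.00096) and Kit by 1.05 (SE 0.34, adjusted p 0.031). Hand2 fell by 1.43 (SE 0.34, adjusted p 0.0075), Prph fell by 1.03 (SE 0.35, adjusted p 0.037) and Ano1 fell by 0.59 (SE 0.15, adjusted p 0.011). Nos1 differed by −1.28 (SE 0.54, adjusted p 0.084) and Ret by 0.45 (SE 0.20, adjusted p 0.099). This comparison shares its D80 transgenic libraries with the comparison of genotypes at D80.

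Several of the calls over age in transgenic mice depended on single libraries or on the processing. That of Prph ended without any 1 of 5 libraries, namely D60 transgenic replicates 1 (adjusted p 0.085) and 2 (0.17) and D80 transgenic replicates 1 (0.11), 2 (0.072) and 3 (0.082). It also ended with upper-quartile scaling (adjusted p 0.056), no composition factor (−0.68, adjusted p 0.13), limma-voom (0.057) and sex as a covariate (0.11). That of Kit ended without D60 transgenic replicates 1 (0.11) or 3 (0.075) or D80 transgenic replicates 2 (0.1) or 3 (0.068). That of Ano1 ended without D80 transgenic replicates 2 (0.056) or 3 (0.062), and with no composition factor (−0.23, adjusted p 0.24). Without D80 transgenic replicate 3 the genes called numbered 3 in place of 6. Nos1 passed without D60 transgenic replicate 3 (−1.68, adjusted p 0.029), and Ret passed without D80 transgenic replicate 2 (adjusted p 0.047) and with no composition factor (adjusted p 0.015).

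In wild-type mice none of the 8 genes was called between D60 and D80 by edgeR, 0 had an unadjusted p under 0.05, and DESeq2 and limma-voom called 0 as well. The share called over all genes was 0% with edgeR, where 1925 genes had an unadjusted p under 0.05, and DESeq2 called 254 genes. The D80 wild-type libraries of Etv1 lay above those at D60, and its adjusted p was 0.49. The median log2 difference of the 8 genes was 0.29, beside 0.04 over all genes tested.

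The fall of Nos1, Prph, Hand2 and Ano1 at D80 took place in libraries with lower summed levels of smooth muscle genes and of stomach lining genes. The summed level of 15 smooth muscle genes, among them Myh11, Acta2, Des and Cnn1, was 13245 to 21408 CPM in D80 wild-type libraries and 3262 to 3380 CPM in D80 transgenic ones. All 15 were called as lower at D80, with a median log2 difference of −2.34, beside 21.99% of all genes called as lower. At D60, 1 of 15 was called as lower, beside 0.241% of all genes, with a list median of −0.74. The D60 sums did not overlap, at 18771 to 24903 CPM in wild-type libraries and 8268 to 16846 CPM in transgenic ones. The summed level of 9 enteric glia genes was 167 to 309 CPM in D80 wild-type libraries and 112 to 153 CPM in D80 transgenic ones. Of the 9, 3 were called as lower, beside 21.99% of all genes, with a list median of −0.86. Most of this sum was Erbb3, at a mean of 172 CPM in D80 wild-type and 91.4 CPM in D80 transgenic libraries. In the same groups S100b stood at 7.85 and 6.82 CPM and Sox10 at 4.16 and 1.98 CPM. The summed level of 9 genes of the pyloric stomach lining was 115972 to 153878 CPM in D80 wild-type libraries and 40242 to 55160 CPM in D80 transgenic ones. These genes did not fall as a set. Gast, Muc5ac, Tff1, Gkn1 and Gkn2 were lower in every D80 transgenic library, and Tff2, Muc6 and Pdx1 overlapped between the genotypes. Sox2 rose from 10.6 ± 3.28 to 52.4 ± 3.81 CPM. The summed level of 5 genes of PDGFRA interstitial cells, by contrast, overlapped between the genotypes. It was 98.2 to 111 CPM in D80 wild-type libraries and 104 to 140 CPM in D80 transgenic ones. Of the 5, 1 was called as higher and 0 as lower, beside 19.4% and 21.99% of all genes. The part of these cell types in the levels of the neuron and pacemaker genes was not tested.

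Set against the smooth muscle genes of the same library, none of the 8 genes had a lower mean in the D80 transgenic pylorus. The muscle genes had a median log2 difference of −2.34 at D80, below that of each of the 8 genes. The statement thus restates the differences given above and adds no separate support. The log2 level of Nos1 minus the mean log2 level of the 15 muscle genes was −8.10 ± 0.78 in D80 wild-type mice and −7.86 ± 0.56 in D80 transgenic mice, and for Prph it was −6.69 ± 0.62 and −5.69 ± 0.36. Both groups of libraries overlapped for these genes. At D60 too, Nos1 and Prph overlapped and the other 6 lay above, where 57.7% of all genes did. For Ano1 the D80 values were −1.74 ± 0.30 and −0.12 ± 0.21, and for Hand2 −4.02 ± 0.15 and −2.63 ± 0.25, with no overlap. Ret, Kit, Uchl1 and Etv1 stood 2.64, 4.07, 5.04 and 5.27 higher relative to muscle. Since 96.2% of all genes tested were higher relative to muscle in every D80 transgenic library than in every D80 wild-type one, the count of 6 of 8 here is no result about these genes.

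**Figure D4:**
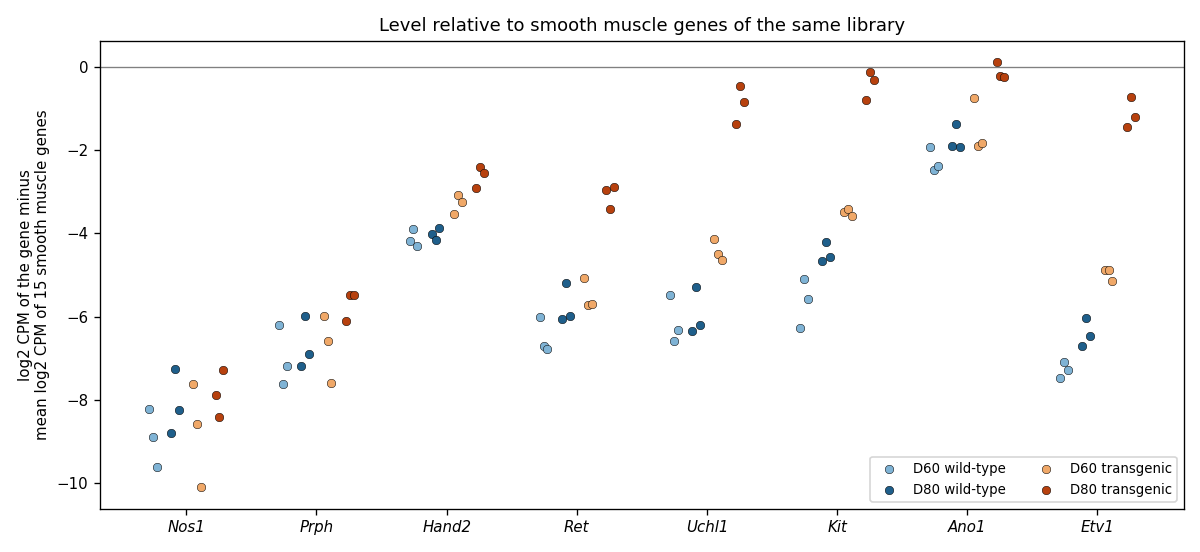
Log2 CPM of each of the 8 tested genes minus the mean log2 CPM of 15 smooth muscle genes in the same library (vertical axis), with 1 point per library. The D80 transgenic libraries overlap the D80 wild-type ones for Nos1 and Prph and lie above them for the other 6 genes.

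Other genes of the same roles were taken from 5 lists of 56 genes, whose counts stand beside the 41.3% of all genes tested that were called at D80 (19.4% as higher, 21.99% as lower) and an all-gene median of −0.07. Of the inhibitory transmitter and peptide genes, 5 of 7 had enough reads, and 2 were called at D80, both as higher, beside 19.4% of all genes. In either direction the share of the list was near the 41.3% of all genes, and the list median was 0.90 on the log2 scale. Gal, the peptide galanin, rose from 2.35 ± 0.78 to 35 ± 18 CPM (log2 3.90, SE 0.44, adjusted p 4.8e-05). Cartpt, a neuropeptide precursor, rose by 1.97 (SE 0.30, adjusted p 5e-04), and Th, the tyrosine hydroxylase of dopamine synthesis, differed by 0.90 (adjusted p 0.16). At D60 none of the 5 was called by edgeR, DESeq2 or limma-voom, and 0 had an unadjusted p under 0.05.

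Of the 10 cholinergic and excitatory genes, 2 were called as higher and 5 as lower at D80, with a list median of −0.84. Chrm2, a muscarinic receptor that smooth muscle carries, fell from 18.8 ± 4.12 to 3.0 ± 0.920 CPM (log2 −2.65, SE 0.27, adjusted p 2.5e-05). Slc5a7, the choline transporter of cholinergic nerve endings, fell by 1.99 (SE 0.33, adjusted p 0.00076). Ache, acetylcholinesterase, rose from 15.5 ± 9.44 to 104 ± 25.2 CPM (log2 2.74, SE 0.38, adjusted p 0.00025). At D60 edgeR, DESeq2 and limma-voom called 0 of the 10, and 3 had an unadjusted edgeR p under 0.05.

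The 12 general neuron genes moved mostly the way of Uchl1. At D80, 10 were called as higher and 1 as lower, with a list median of 2.90. At D60, 6 were called as higher, with a median of 0.97, beside 3.66% of all genes called as higher. The D60 count was 0 with sex as a covariate and 3 without D60 wild-type replicate 3. Ina, the neurofilament protein alpha-internexin, rose from 0.712 ± 0.0651 to 18.3 ± 5.09 CPM (log2 4.68, SE 0.29, adjusted p 7.6e-07). Snap25, of the vesicle fusion machinery, rose by 4.21 (SE 0.30, adjusted p 1.9e-06), and Gap43, a growth cone protein, by 3.35 (SE 0.25, adjusted p 2.4e-06). Stmn2, named after its values were seen as the 1 called lower, fell by 0.56 (adjusted p 0.02). Many of these genes are made by neuroendocrine cells too, and the neuroendocrine sums given above apply to this list as well.

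Of the GDNF and Ret signalling and lineage genes, 11 of 12 were tested, and 0 were called as higher and 5 as lower at D80, with a median of −0.75. Of all genes, 19.4% were called as higher and 21.99% as lower. The 5 of 11 called in either direction are near the 41.3% of all genes. Gfra2, the co-receptor for neurturin, fell by 1.05 (SE 0.21, adjusted p 0.0028), and Edn3, a ligand of neural crest precursors, by 2.02 (SE 0.45, adjusted p 0.0047). At D60 edgeR and DESeq2 called 0 of the 11, and 0 had an unadjusted edgeR p under 0.05.

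Of the 15 other pacemaker cell genes, 1 was called as higher and 5 as lower at D80, with a median of −0.18, so that 6 of 15 called lie near the 41.3% of all genes and are no result about this list. Prkg1, the kinase that answers nitric oxide signals in muscle and interstitial cells, fell by 1.76 (SE 0.16, adjusted p 8e-06), and Mrvi1, its substrate, by 1.95 (SE 0.30, adjusted p 0.00044). At D60 edgeR called 0 of the 15 and DESeq2 called 2, and 2 had an unadjusted edgeR p under 0.05.

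**Figure D5:**
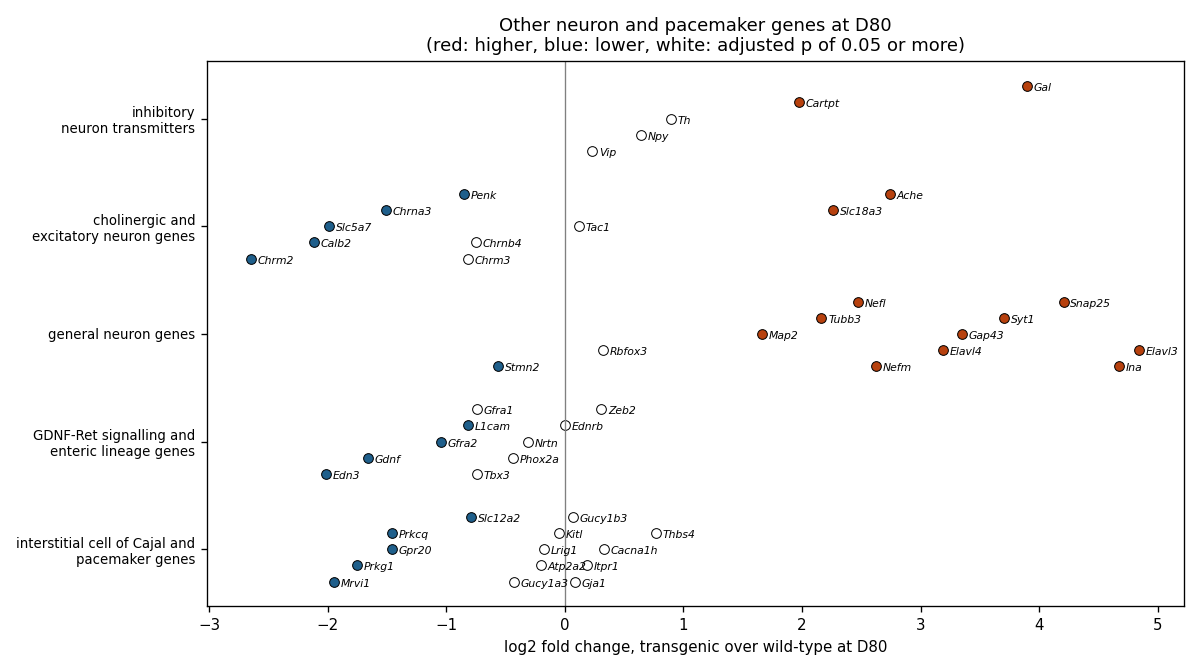
Log2 difference at D80, transgenic minus wild-type, of the genes of the 5 lists that are reported here, with 1 point per gene coloured by whether it was called higher, called lower or not called. The general neuron genes lie mostly above 0, with 10 of 12 called higher, while no gene of the GDNF and Ret list is called higher.

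The genes whose profile over the 12 libraries lay nearest to each member were found by the root mean square (RMS) difference of centred log2 CPM, among 11475 genes with a mean of at least 5 CPM over the 12 libraries. Etv1 lay nearest to Unc5a (RMS 0.16) and Mdga1 (0.19), against an own spread of 1.32, and Uchl1 to Nap1l5 (0.18) and Sult4a1 (0.19), against 1.08. Kit lay nearest to Parvb and Ggt5 (0.22 each, own spread 0.99). Hand2 lay nearest to Barx1 and Smarcd3 (0.18 each, own spread 0.66), and Ano1 to Eef2k (0.08) and Stat5a (0.10), against 0.34. Prph lay nearest to Slc16a1 and Fam83c (0.32 each, own spread 0.69) and Nos1 to Acox2 (0.51) and Fam83c (0.55), against 0.98. Ret, with an own spread of 0.31, lay nearest to Nsun5 (0.16) and Rbl1 (0.17). With 4 groups behind the 12 libraries, nearness of profile says little beyond a like order of the groups.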

How the data were processed

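Whole pylorus RNA was made into 12 libraries with a stranded mRNA kit, per the labels' protocols. The authors deposited a table of raw read counts for 23420 gene symbols, without normalization, and these counts are the values used here; their normalized table was not used. Per the submitters' processing notes, the tools were STAR 2.5.3a, HTSeq 0.9.1 and, for an unstated step, edgeR 3.16.5, with build mm10. The annotation behind the counting, and whether it used strand, are not stated in these sources.

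The counts were tested with edgeR 4.0.16 under R 4.3.3. Genes were kept by filterByExpr, which left 15369 genes with 99.975% of the counts, and library sizes were scaled by TMM factors of 0.805 to 1.30. A quasi-likelihood fit with a mean for each of the 4 groups covered all 12 libraries (8 residual degrees of freedom, biological coefficient of variation 24.2%), and Benjamini-Hochberg adjustment ran over the whole table, with calls under 0.05. The code was tested on simulated data. A floor of 3 counts per library is 0.185 CPM in the smallest and 0.0901 CPM in the largest library after TMM scaling; floors cover counting error only. No 2 libraries of a group agreed within sampling noise. Values relative to muscle use log2 CPM with a prior count of 2.

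The 9 genes and the lists were chosen with earlier results of these data known. The text names the 9 genes, the 3 genes of each list with the smallest p at D80, and for each tested gene the 2 genes with the nearest profile among those with a mean of at least 5 CPM over all libraries; some genes that this rule picks are not reported here. Alternatives were other scalings and filters, DESeq2 1.42.0, limma-voom (limma 3.58.1), a replicate block, sex as a covariate, the compared groups alone and each library left out.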

Additional observations from a re-analysis of the deposited data

Results flagged for a closer look

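The difference between transgenic and wild-type mice in Uchl1 was larger at D80 than at D60 by 1.73 on the log2 scale (SE 0.35, 95% interval 0.97 to 2.49, edgeR adjusted p 0.019), the 1 interaction of genotype and age called among the 8 tested genes. The effect was 0.93 at D60 and 2.67 at D80, and in 3 of 3 transgenic libraries at each age the level lay above all wild-type libraries of that age. Sex differed between the genotypes in all D60 libraries and between the ages in wild-type mice. With sex as a covariate, which rests on the 1 male library of the D80 transgenic group, the Uchl1 interaction was 2.47 (edgeR adjusted p 0.074).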

How the results depend on the processing

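The D80 count of called genes stayed at 6 or 7 of 8 in every setting run. At D60 the count of 1 became 2 with upper-quartile scaling, with no composition factor and with the replicate block, 3 with DESeq2 and 0 with sex as a covariate, and ran from 1 to 3 over the libraries left out. Kit at D60 passed with DESeq2 (adjusted p 0.0049), and Uchl1 at D60 with DESeq2 (0.013), upper-quartile scaling (0.048) and no composition factor (0.031). Over age in transgenic mice the count of 6 ran from 3 to 6 over the libraries left out. In the interaction the count of 1 became 3 with DESeq2 and with the replicate block, 2 without D80 wild-type replicate 3 and D80 transgenic replicate 1 together, and ran from 0 to 2 over single libraries left out; the joint omission was chosen after seeing the data. With sex as a covariate the interaction count was 1 but the gene called was Ano1 (adjusted p 0.048). The sex covariate rests on the 1 male library of the D80 transgenic group, so these settings do not separate sex from that library. The cause was not tested for any of these.

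Signs turned only for genes that were not called, apart from values given without a test. For Ano1 at D60 the difference was −0.0129 with RLE scaling, −0.0128 with DESeq2, −0.00294 with limma-voom and −0.00176 with the replicate block, and −0.0806 to 0.0621 over libraries left out. For Hand2 it was −0.11 with sex as a covariate at D60, and −0.19 to 0.45 over libraries left out at D60 and −0.39 to 0.0142 over age in wild-type mice. Over age in wild-type mice Prph was at 0.00148 with no composition factor and at −0.28 to 0.26 over libraries left out, and Uchl1 at −0.34 to 0.0539. In the interaction Ret was at −0.42 with sex as a covariate, −0.16 with the joint omission and −0.0750 to 0.22 over libraries left out, and Kit at −0.0695 to 0.77. Nos1 relative to muscle ran from −0.11 to 0.67 over libraries left out.

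Over 18 pairs of same-numbered libraries the mean correlation of deviations was −0.0073, from −0.35 to 0.39, with 5 over 0.1. Of the 12 libraries, 3 lay nearest to their own number. Pairs without a D80 wild-type library were all positive, from 0.0035 to 0.39, and most pairs with one were negative. The mean over all pairs therefore cannot settle whether the numbers pair the libraries. With the replicate block, Kit at D60 passed (adjusted p 0.026), as did the interactions of Ano1 (0.029) and Etv1 (0.027), and Prph over age in transgenic mice did not (0.058).

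Of the genes called at D80, 46.8% were higher, against 51.7% with RLE scaling, 63.0% with upper-quartile scaling and 83.6% with no composition factor; over age in transgenic mice the shares were 49.6%, 53.3%, 59.1% and 82.4%. Over all genes the count at D60 (599) was 992 with DESeq2, 85 with sex as a covariate, 378 with wild-type replicate 3 of that age left out and 388 with transgenic replicate 2 left out. Over age in transgenic mice the count (5490) was 3507 with D80 transgenic replicate 2 left out. In wild-type mice over age the count (0) was 254 with DESeq2 and up to 396 (D80 wild-type replicate 1) with a library left out, and in the interaction (768) it was 1745 with DESeq2, 423 with limma-voom, 99 with sex as a covariate and 193 to 2419 over libraries left out. The general neuron list at D60 (6 called) had 0 with sex as a covariate and 3 without D60 wild-type replicate 3, and the GDNF and Ret list at D80 (5 called) had 3 with no composition factor. With 7 to 67 reads per library, Nos1 is the least precise of the tested genes, and Chat lies near the floor.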
